A study of Mus musculus with 8 samples.

Results

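Killer lectin-like receptors are surface proteins of natural killer (NK) cells and of effector CD8 T cells. They are encoded on mouse chromosome 6, most of them in one gene complex, with Klrg1 further away. The 10 genes described here were chosen by name: Klrk1, Klrc1, Klrc2, Klrd1, Klre1, Klrg1, Klrb1c, Klra3, Klra7 and Klra9. A gene was measured where the array table had a row with its symbol alone, and its brightest row was used. This found 8 of the 10 genes, out of 22180 genes with a row of their own in the whole table. Klra3 and Klra7 had rows only in common with other genes and have no value of their own here.

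Expression was measured on 8 microarrays of RNA from PD-1hi effector CD8 T cells, sorted from spleen as lineage-negative, T cell receptor beta-positive, CD8-positive, CD127-low, CD44-intermediate-to-high and PD-1-high. All 8 samples came from female C57BL/6 mice that had been given leukaemia cells of the Eµ-TCL1 model, in which a TCL1 transgene under a B cell enhancer causes a disease like chronic lymphocytic leukaemia, so there is no leukaemia-free group. From week 3 after transplantation, 4 samples' mice received an isotype control antibody and 4 samples' mice an antibody that blocks the interleukin 10 receptor (anti-IL-10R), for 2 weeks, and spleens were taken at week 5. The age of the mice is not given, and the labels do not tell whether arrays stand for different animals, so every p-value reflects array-to-array spread, which may be partly technical. The question was which of these receptor genes differed in level between the groups.

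The receptors share a fold and differ in what they do with a signal. NKG2D (Klrk1) binds stress-induced ligands and activates through the adaptor DAP10 (Hcst). CD94 (Klrd1) forms a pair with NKG2A (Klrc1), which inhibits, or with NKG2C (Klrc2), which activates through the adaptor DAP12 (Tyrobp), and both pairs read the non-classical MHC molecule Qa-1 (H2-T23). KLRG1 binds cadherins and inhibits, NKR-P1C (Klrb1c) is the NK1.1 antigen of NK cells, KLRE1 pairs with the KLRI receptors, and the Ly49 receptors (Klra genes) mostly read classical MHC class I. On CD8 T cells these receptors are known as features of antigen-experienced effector cells.

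In RefSeq's gene order on GRCm38.p6, Klre1, Klrd1, Klrk1, Klrc3, Klrc2 and Klrc1 lie side by side with no other protein-coding gene between them. The sequence table held promoter windows for 8 of the 10 genes, with none for Klrd1 and Klrg1. The 250 bases before the annotated start are shown for 4 of these neighbours, because these genes were high and low on the same isotype arrays, as described further on. Capitals mark TGTGGT or its reverse complement ACCACA, the letters bound by RUNX factors.
Klre1 (chr6:129577963-129578212, + strand): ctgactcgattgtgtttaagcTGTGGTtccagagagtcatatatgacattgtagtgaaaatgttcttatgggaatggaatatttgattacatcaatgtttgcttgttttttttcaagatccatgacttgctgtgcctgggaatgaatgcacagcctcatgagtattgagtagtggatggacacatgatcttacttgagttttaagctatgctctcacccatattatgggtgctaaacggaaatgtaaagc
Klrk1 (chr6:129623865-129624114, - strand): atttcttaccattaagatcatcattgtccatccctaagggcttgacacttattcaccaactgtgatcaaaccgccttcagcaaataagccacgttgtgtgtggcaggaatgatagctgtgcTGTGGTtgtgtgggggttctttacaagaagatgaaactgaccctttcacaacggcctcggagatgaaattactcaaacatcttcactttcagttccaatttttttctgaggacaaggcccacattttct
Klrc2 (chr6:129660597-129660846, - strand): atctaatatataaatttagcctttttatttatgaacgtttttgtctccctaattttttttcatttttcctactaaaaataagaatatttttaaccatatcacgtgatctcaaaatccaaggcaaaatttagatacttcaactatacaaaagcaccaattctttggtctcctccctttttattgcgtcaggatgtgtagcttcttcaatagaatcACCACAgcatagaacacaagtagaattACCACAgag
Klrc1 (chr6:129678974-129679223, - strand): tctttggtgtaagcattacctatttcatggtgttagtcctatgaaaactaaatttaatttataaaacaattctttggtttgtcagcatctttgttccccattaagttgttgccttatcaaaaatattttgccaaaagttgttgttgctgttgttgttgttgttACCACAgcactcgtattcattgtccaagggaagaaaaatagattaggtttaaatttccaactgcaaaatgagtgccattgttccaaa

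Of the 8 genes with a window, 5 held these letters in a window (Klre1, Klrk1, Klrc2, Klrc1 and Klrb1c), and Klra3, Klra7 and Klra9 did not. Of all 32851 windows of the same length in the table, 14.0% held them, a share per window and not per gene. Klre1 has 2 windows and only the one shown has a match; both windows of Klrc2 have matches. In all, 9 sets of letters were looked for on both strands. The T-box letters GGTGTGA (3.33% of all windows), the AP-1 letters TGANTCA (6.75%), the ETS letters CCGGAAG (6.91%), the interferon response element (2.98%) and the strict STAT letters TTCCNGGAA (0.913%) were in none of these genes' windows. The wider STAT letters TTCNNNGAA (7.02%), which include the strict ones, were in a Klra7 window, the NFAT letters GGAAAA (20.4%) in Klrc2, Klra3, Klra7 and Klra9, and the MAF half-site letters TGCTGA (16.1%) in Klrk1 and Klrc1. A match describes the letters and does not show a bound site.

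Of the 3 Ly49 genes, Klra9 and Klra3 had like promoter windows and Klra7 did not. Over 250 bases, the windows of Klra9 and Klra3 were identical at 83.6% of aligned positions. Klra9 and the windows of Klra7 were identical at 48.8% and 45.0%, near the 49.8% of Klrc1 and the Klrc2 window shown. The last 150 bases before the starts of Klra9 and Klra3 are shown to make the likeness visible.
Klra9 (chr6:130193113-130193262, - strand): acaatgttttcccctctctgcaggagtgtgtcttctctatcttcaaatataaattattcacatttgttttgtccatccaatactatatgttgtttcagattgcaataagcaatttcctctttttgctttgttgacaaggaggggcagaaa
Klra3 (chr6:130337627-130337776, - strand): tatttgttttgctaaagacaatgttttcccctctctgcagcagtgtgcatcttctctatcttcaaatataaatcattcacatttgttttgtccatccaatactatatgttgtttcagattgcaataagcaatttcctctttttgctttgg

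Isotype replicate 1 stood apart from the other arrays before any receptor was considered. Over 12019 tested genes its Pearson correlation with the others was 0.915 to 0.929, against 0.962 to 0.986 among the other 7 (correlations across genes, which are not independent replicates), so results are given with and without it. Values are on a log2 scale, on which a difference of 1 is a doubling, and genes with a mean under 5.24, the median of all rows, are called dim. The sort was visible in the data: all 10 measured markers of the sorted CD8 T cells were above that limit, with list means of 10.12 to 10.48 on the isotype arrays and 10.58 to 10.68 on the anti-IL-10R arrays. Among 12 NK cell markers that are not killer lectin-like receptors, Ncr1, Tyrobp, Fcer1g and Sh2d1b1 were dim over all arrays (Fcer1g with group means of 5.17 and 5.29), with Ncr1, which encodes NKp46, at 3.82 to 4.51 and 3.96 to 4.35. The 8 others were above the limit, among them Eomes (group means of 10.25 and 10.51), Gzma (9.33 and 10.09) and Txk (8.57 and 9.07). Eomes, Gzma, Cd244a, Fcgr3 and S1pr5 are also in lists used below for T cell receptors, transcription factors or killing. The mean of the 12 is thus not particular to NK cells. It ran from 6.42 to 6.64 under isotype antibody and from 6.69 to 6.88 under blockade. The largest difference among them was that of Cd244a (1.55 ± 0.41, limma adjusted p = 0.0783). The part of NK cells in the results was not tested. The mean of 10 B cell markers was 4.79 to 5.41 and 4.80 to 4.94, and 7 of these 10 were dim. Isotype replicate 1 had the lowest CD8 T cell marker mean of all arrays. Its means were the highest for CD4 T cell (6.29, other isotype arrays 5.75 to 5.82), macrophage (5.84, 5.33 to 5.39) and neutrophil markers (4.56, 3.99 to 4.14, mostly dim). Those for B cell, dendritic cell and NKT markers were not. Foxp3 was at 7.97 there and at 5.08 to 5.95 on the other arrays. The cell content of that array was not tested.

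None of the killer lectin-like receptor genes passed the threshold of an adjusted p below 0.05 over all tested genes after IL-10R blockade. Of the 8 measured genes, 5 were bright enough to be tested (Klrk1, Klrc1, Klrd1, Klre1 and Klrg1) and 3 were dim (Klrc2, Klrb1c and Klra9). By limma 0 of the 5 passed, where 2.53% of all tested genes did (1.23% higher and 1.30% lower). At an unadjusted p under 0.05 there were 2, Klrk1 and Klrg1, against 20.0% of all tested genes, and 0 by exact permutation. The groups overlapped for all 5, whereas 15.3% of tested genes had groups that did not overlap (9.32% higher and 5.99% lower). The median difference of the 5, anti-IL-10R minus isotype, was −0.19, beside 0.03 over all tested genes, with 3 lower and 2 higher. The 3 dim genes, tested among all 22180 genes without the limit, did not pass either (smallest limma adjusted p = 0.739), where 0.654% of those genes did. In sorted pools of cells, fewer cells carrying a transcript and less of it per cell cannot be told apart.

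**Figure D1:**
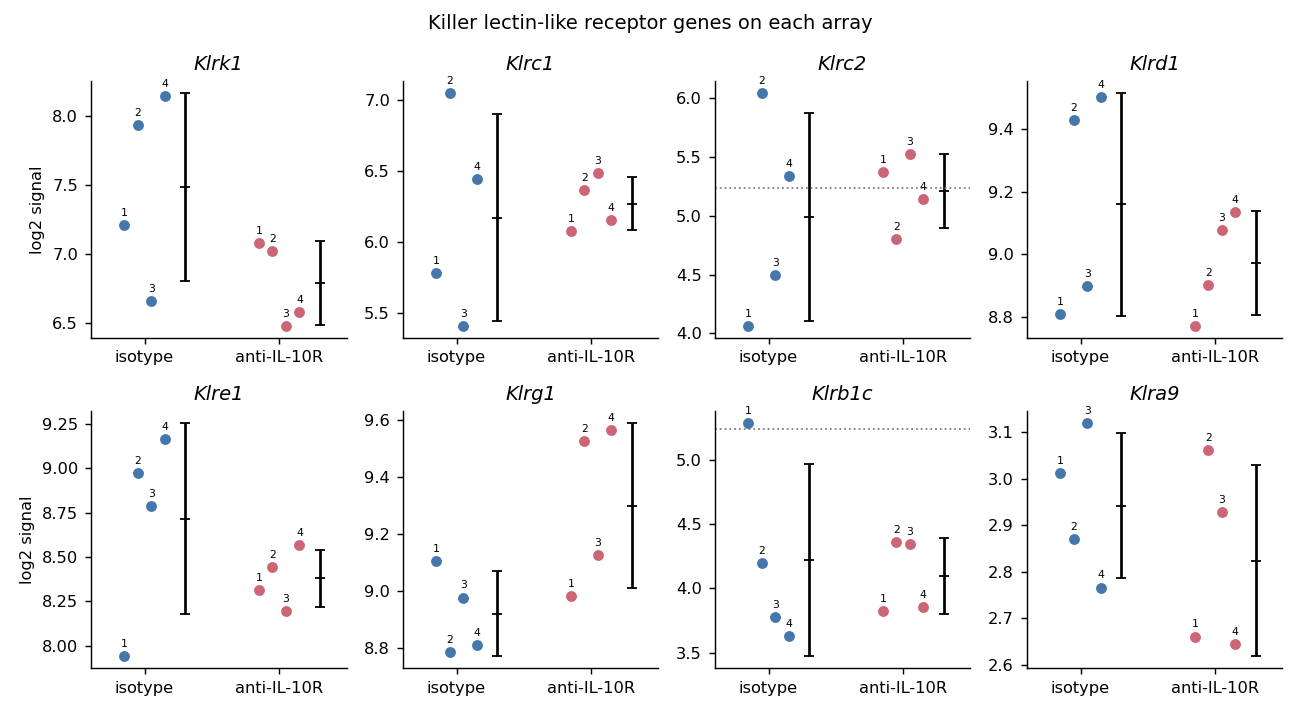
Log2 signal of the 8 measured receptor genes on each array (blue, isotype; red, anti-IL-10R; small numbers, replicate; black, mean ± SD, n = 4; dotted line, limit for dim genes). The isotype points of Klrk1, Klrc1, Klrc2, Klrd1 and Klre1 are spread more widely than the anti-IL-10R points, and the groups overlap in every panel; each panel has its own axis, which does not start at 0.

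Klrk1 (transcript cluster 17471565), which encodes the activating receptor NKG2D, had the largest difference in size of the 5 tested genes. Its log2 signal was 7.21, 7.93, 6.66 and 8.15 on isotype replicates 1 to 4 and 7.08, 7.02, 6.48 and 6.58 on anti-IL-10R replicates 1 to 4. The 4 blockade arrays lay below 3 of the isotype arrays, and isotype replicate 3 fell among them. The difference was −0.70 ± 0.31 (SE), a ratio of 0.616 with a 95% interval of 0.381 to 0.996 (limma adjusted p = 0.246; exact two-sided permutation p = 0.114, where 4 arrays against 4 allow 0.0286 at the least). It was the 182nd lowest of the 12019 differences. It was −0.97 without isotype replicate 3 and −0.48 without isotype replicate 4, and did not pass with any array left out (adjusted p 0.105 to 0.472).

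Klre1 (transcript cluster 17463557), which encodes a receptor subunit that pairs with KLRI1 or KLRI2, passed the test, as lower after blockade, only where the outlying isotype array was left out or arrays were weighted. Its signal was 7.94, 8.97, 8.79 and 9.16 on isotype replicates 1 to 4 and 8.31, 8.44, 8.19 and 8.57 on anti-IL-10R replicates 1 to 4. Isotype replicate 1 was the lowest of all 8 arrays, and the 3 others were all above the highest blockade array. With all arrays the difference was −0.34 ± 0.24 (SE, ratio 0.791, 95% interval 0.545 to 1.15, limma adjusted p = 0.477). Without isotype replicate 1 it was −0.60 ± 0.13 (adjusted p = 0.0229), in a fit in which 9.25% of all tested genes passed, 3.35% higher and 5.90% lower. With all 8 arrays kept but weighted by their quality, the difference was −0.62 (adjusted p = 0.0196). In that weighted fit 1469 of the 12019 tested genes passed, 654 higher and 815 lower. The weights were estimated from these same arrays, so the weighted fit is not an independent check. Without isotype replicate 4 the difference was −0.19 (adjusted p = 0.715), and without isotype replicate 1 the groups were separate for 25.5% of tested genes, 14.2% in this direction. The partner genes Klri1 and Klri2 were dim, with differences of −0.23 ± 0.36 (0.21 without isotype replicate 1) and 0.04 ± 0.11 (−0.02 at its lowest with 1 array left out).

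Klrd1 (transcript cluster 17463567) encodes CD94, the chain common to the inhibitory and activating Qa-1 receptors. It gave 8.81, 9.43, 8.90 and 9.51 on the isotype and 8.77, 8.90, 9.08 and 9.13 on the anti-IL-10R arrays. Isotype replicates 2 and 4 were above every blockade array and replicates 1 and 3 were not. The difference was −0.19 ± 0.18 (SE, limma adjusted p = 0.607), −0.31 without isotype replicate 1 and −0.07 without isotype replicate 4, so its size depends on single arrays.

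The CD94 partners Klrc1 and Klrc2 had no settled direction. Klrc1 (transcript cluster 17471598), for the inhibitory NKG2A, read 5.78, 7.05, 5.41 and 6.45 on isotype and 6.08, 6.37, 6.48 and 6.16 on anti-IL-10R arrays. Klrc2 (17471586), for the activating NKG2C, read 4.06, 6.05, 4.50 and 5.34 against 5.37, 4.80, 5.52 and 5.14. For both genes the blockade arrays lay within the range of the isotype arrays. Klrc1 differed by 0.10 ± 0.31 (95% interval −0.59 to 0.79, limma adjusted p = 0.896) and by −0.03 without isotype replicate 1. The dim Klrc2 differed by 0.22 ± 0.37 (95% interval −0.60 to 1.05, adjusted p = 0.833 over all genes) and by −0.09 without that array. A doubling of Klrc2 lies within its interval, so the data do not show that these genes were alike in both groups. Within each array, Klrc1 minus Klrc2 averaged 1.18 ± 0.36 (SD, n = 4) under isotype antibody and 1.06 ± 0.36 under blockade, a change of −0.12 (exact two-sided permutation p = 0.571), or 0.055 without isotype replicate 1. The gene between them and Klrk1, Klrc3, was dim in both groups, with 1 array, anti-IL-10R replicate 3, at 4.06 and the others at 2.22 to 2.94; its difference of 0.38 ± 0.36 became −0.03 without that array.

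Klrg1 (transcript cluster 17470533), the inhibitory cadherin receptor of late effector cells, had a difference of the opposite sign to those of Klrk1 and Klre1. It gave 9.11, 8.79, 8.98 and 8.81 on the isotype and 8.98, 9.53, 9.13 and 9.57 on the anti-IL-10R arrays. Anti-IL-10R replicates 2 and 4 were well above the isotype range, replicate 3 was just above it and replicate 1 was inside it. The difference was 0.38 ± 0.16 (SE), a 1.30-fold ratio with a 95% interval of 1.02 to 1.66 (limma adjusted p = 0.217, exact permutation p = 0.0571). It ranged from 0.29 to 0.49 with 1 array left out (adjusted p 0.103 to 0.415) and was positive in each of those fits. Without isotype replicate 1 its groups were separate, as they were for 11.3% of tested genes in this direction.

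The remaining receptors were near the bottom of the scale. Klrb1c (17471452), the NK1.1 gene, was dim, at 3.63 to 5.29 on isotype and 3.82 to 4.36 on anti-IL-10R arrays. Only isotype replicate 1 (5.29) reached the limit; the difference of −0.13 ± 0.32 became 0.23 without it. Klra9 (17471757), which encodes Ly49I, was dim on every array, at 2.77 to 3.12 against 2.64 to 3.06, and differed by −0.12 ± 0.13. The 2 rows that Klra3, the Ly49C gene, holds in common with Klra10 or Klra9, and the row that Klra7, the Ly49G gene, holds in common with 6 other names, lay between 2.52 and 4.00 on all arrays. Those rows cannot be given to a single gene.

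Of 24 other genes of the family or close to it that were listed by name, 15 had a row of their own and 13 of these were dim, with group means of 2.45 to 4.91. Their differences lay between −0.48 and 0.38, and none passed (smallest limma adjusted p 0.346). The 2 brighter ones were Klrg2, which differed by −0.06 ± 0.14 (−0.02 without isotype replicate 1, 0.03 at its highest with 1 array left out), and Cd69, a C-type lectin of early activation that holds T cells in tissue, which differed by 0.45 ± 0.21 (adjusted p = 0.275).

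**Figure D2:**
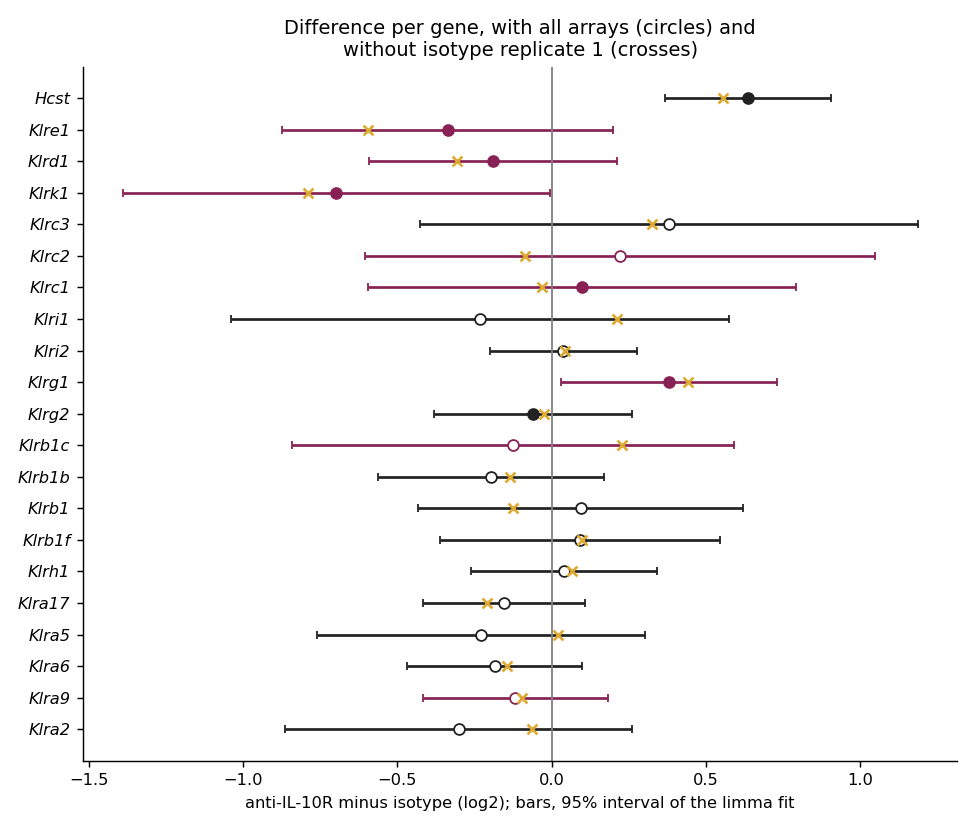
Log2 difference per gene (anti-IL-10R minus isotype) and its 95% interval by limma (circles; purple, the 8 measured receptor genes; open, dim genes) and the difference without isotype replicate 1 (yellow crosses). Hcst stands apart to the right at 0.64, Klrk1 furthest to the left at −0.70, and the crosses of Klrc1, Klrc2, Klrb1c, Klri1, Klrb1 and Klra5 lie on the other side of 0 from their circles.

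The adaptor gene Hcst rose after blockade, and its receptor gene Klrk1 did not pass the test. Hcst (transcript cluster 17489046) encodes DAP10, which carries the NKG2D signal to phosphoinositide 3-kinase. It gave 11.11, 11.60, 11.36 and 11.36 on isotype and 11.97, 11.98, 12.05 and 11.99 on anti-IL-10R arrays. Every blockade array was above every isotype array, and the blockade arrays were close together. It rose by 0.64 ± 0.12 (SE), 1.56-fold (95% interval 1.29 to 1.87, limma adjusted p = 0.0334). The size was 0.56 to 0.72 with 1 array left out. The call was kept without isotype replicate 1 (adjusted p = 0.0122) or isotype replicate 2 (0.0483), and ended without isotype replicate 3 (0.079) or 4 (0.0929) and without anti-IL-10R replicate 1 (0.0789), 2 (0.0962), 3 (0.118) or 4 (0.0906). It also ended without the filter on dim genes (0.05), with the replicate block (0.115) and with the NK (0.411) or B cell (0.188) marker mean as covariate. The NK marker mean itself did not overlap between the groups (6.42 to 6.64 against 6.69 to 6.88). A fit with it therefore cannot set it apart from the treatment, and 1 of all tested genes passed there. The second adaptor, Tyrobp, was dim, at 5.05 to 5.28 and 4.91 to 5.42, and differed by 0.01 ± 0.13 (−0.06 at its lowest with 1 array left out).

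Within each array, Klrk1 minus Hcst was −3.91, −3.67, −4.70 and −3.22 on isotype and −4.89, −4.97, −5.57 and −5.41 on anti-IL-10R arrays. The groups did not overlap in this quantity, in which a shift of a whole array cancels. The mean changed from −3.87 ± 0.62 (SD, n = 4) to −5.21 ± 0.33, a change of −1.34 (exact two-sided permutation p = 0.0286, the smallest that 4 against 4 arrays allow, and 0.0571 after Benjamini-Hochberg adjustment over the 2 pairs compared). The quantity compares changes, since the levels of 2 probes cannot be set against each other. Hcst alone already separated the groups (11.11 to 11.60 against 11.97 to 12.05), so the separation and its p do not stand apart from the Hcst result. How many other genes would be separate after subtraction of Hcst was not counted.

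**Figure D3:**
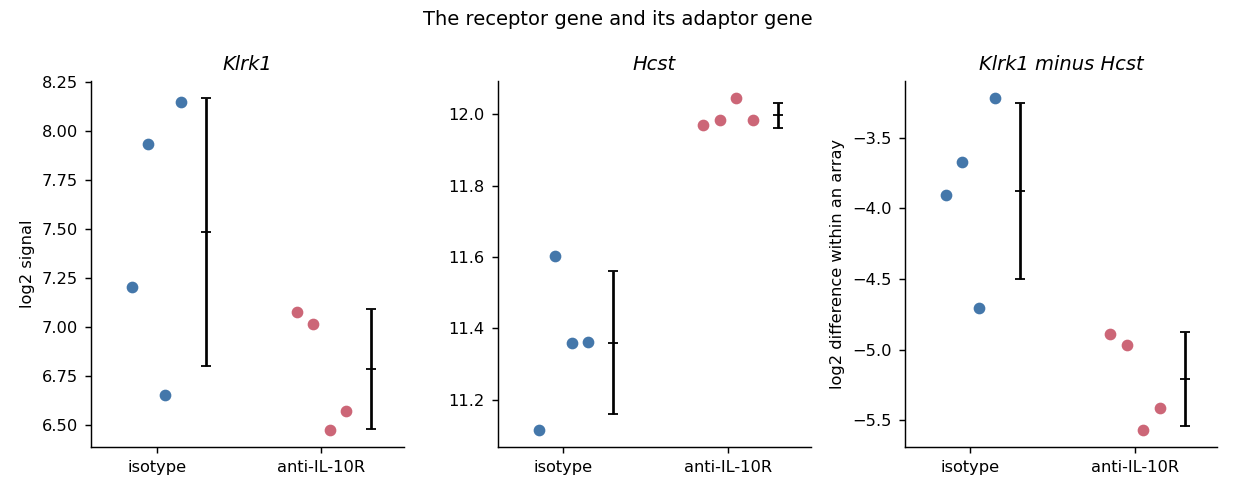
Log2 signal of Klrk1 and of Hcst, and their difference within each array (blue, isotype; red, anti-IL-10R; black, mean ± SD, n = 4; axes do not start at 0). The groups overlap for Klrk1 and are separate for Hcst, at most 11.60 against at least 11.97, and for the difference.

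The 5 genes Klre1, Klrd1, Klrk1, Klrc2 and Klrc1 were all higher on isotype replicates 2 and 4 than on isotype replicates 1 and 3. The means of these pairs of arrays were 8.04 against 6.93 for Klrk1, 6.75 against 5.60 for Klrc1, 5.70 against 4.28 for Klrc2, 9.47 against 8.85 for Klrd1 and 9.07 against 8.36 for Klre1. Klrg1, Klrb1c and Klra9 did not have this order. The order was noticed in these values; of all tested genes 26.0% had it, and 8.64% had it with means at least 0.5 apart, as the 4 tested genes of the 5 did. Over all 8 arrays, which share their group and overall quality, Klrc1 correlated with Klrc2 at r = 0.837 (0.860 without isotype replicate 1), Klrd1 with Klre1 at 0.783 (0.753) and Klrk1 with Klrd1 at 0.657 (0.727). Klrc1 correlated with Klrd1 at 0.696 (0.649) and Klrk1 with Klre1 at 0.593 (0.776). The weakest pairs of the 5 over the 8 arrays were Klrc1 with Klre1 at 0.344 (0.172) and Klrk1 with Klrc2 at 0.345 (0.506). Klrc2 with Klre1 followed at 0.475 (0.126), so the 5 did not all vary together over the 8 arrays. Klrg1 correlated with Klrk1 at −0.633, with or without that array. Of the 12 other NK cell markers, 3 had the order (Cd244a, S1pr5 and Txk) and 9 did not. Among those 9 were the dim Ncr1, Tyrobp, Fcer1g and Sh2d1b1, whose order near the floor says little. The mean of the 12 markers had it narrowly, with 6.55 and 6.64 on isotype replicates 2 and 4 against 6.42 and 6.51.

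The spread of Klrk1, Klrc1 and Klre1 was wide in the isotype group. The SD over 4 isotype arrays was 0.68 for Klrk1, 0.73 for Klrc1 and 0.54 for Klre1, which is wider than at least 89.8% of all tested genes, whose median SD was 0.24. For Klrd1 it was 0.36, at percentile 73.5. Over the anti-IL-10R arrays the SDs of the first 3 were 0.31, 0.19 and 0.16, beside a median of 0.16. Klrk1 was widely spread there too, at percentile 89.2, while Klrc1 (63.4) and Klre1 (53.1) were nearer the middle. Klrg1 had the reverse, 0.15 and 0.29. The difference in spread was not tested.

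**Figure D4:**
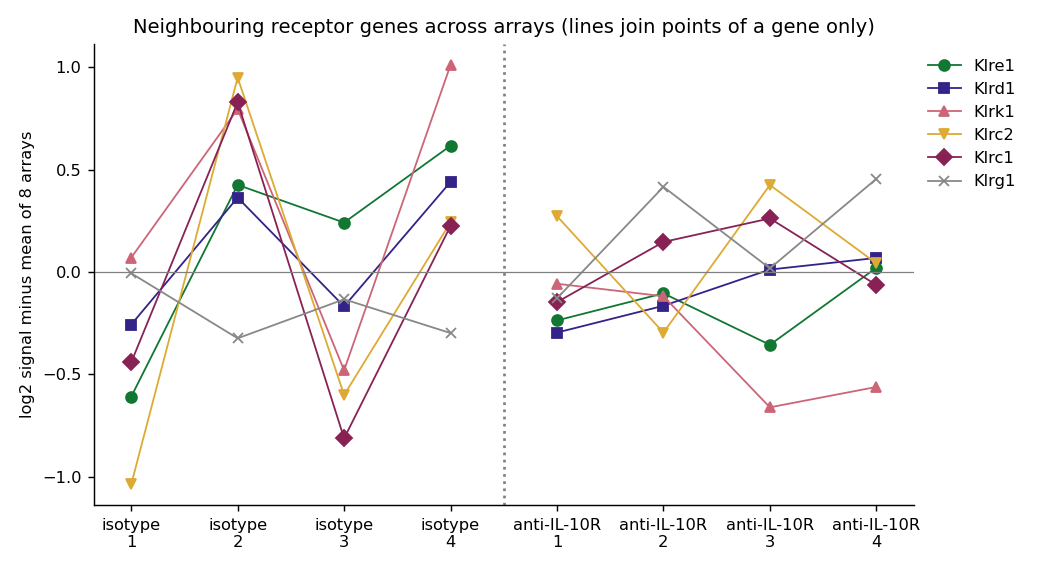
Log2 signal of each gene minus its mean over the 8 arrays, for the 5 neighbouring genes and, in grey, Klrg1, by array. On the isotype side the 5 coloured lines peak on replicates 2 and 4; on the anti-IL-10R side Klre1 and Klrg1 are higher on replicates 2 and 4, and Klrd1, Klrk1, Klrc2 and Klrc1 are not. Lines only link the points of a gene.

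The genes whose levels were most like those of a receptor gene over the 8 arrays, by Pearson's r, are given as a description without a test. They were Mrpl34 (0.971), Atp10a (0.962) and Agps (0.950) for Klrk1, and Tmem222 (0.975), Itpa (0.927) and Slc35e4 (0.924) for Klrc1. For Klrd1 they were Nle1 (0.949), Ppic (0.945) and Kbtbd8 (0.938), and for Klre1 Prps2 (0.988), Enkd1 (0.985) and Rpl15 (0.984). For Klrg1 they were Ifnl2 (0.962), Bend6 (0.947) and Fam189a1 (0.945). Without isotype replicate 1 these 15 correlations were 0.923 to 0.992 over 7 arrays. The genes were picked for the highest r among the tested genes on these same arrays. High values therefore follow from the choice, and those over 7 arrays are no separate check.

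Ligand genes of the receptors were somewhat higher after blockade without passing the test. Of 22 listed ligand genes 14 had a row of their own and 9 were tested; all 9 had a higher mean, 5 with separate groups (as were 9.32% of all tested genes in this direction), and 0 passed (2.53% of all). None passed without isotype replicate 1 either. Their median difference was 0.27, beside 0.03 over all tested genes, and 0.27 beside −0.01 without isotype replicate 1. The shift was not particular to ligands. All 10 markers of the sorted CD8 T cells had a higher mean, 5 with separate groups, and their median was 0.25 (0.20 without isotype replicate 1). H2-T23, which encodes the Qa-1 ligand of the CD94 receptors, differed by 0.39 ± 0.13 (SE, limma adjusted p = 0.127), and H2-K1, a classical MHC class I gene, by 0.27 ± 0.09 (0.153). H60b, a ligand of NKG2D, differed by 0.34 ± 0.11 (0.123). It was among the 5 with separate groups and was tested only because of its level after blockade. Its mean was 5.08, in the dim range, on the isotype arrays and 5.42 on the anti-IL-10R arrays. Cdh1, which encodes E-cadherin, a ligand of KLRG1, differed by 0.85 ± 0.25 (0.100), but a second and dimmer row under the same symbol differed by −0.09.

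Of 20 adaptor and proximal signalling genes 15 were tested, and 1 of them, Hcst, passed (2.53% of all tested genes did). There were 12 with a higher and 3 with a lower mean, and 5 had groups that did not overlap, all higher, as 9.32% of all tested genes were. The next by p were Plcg1, phospholipase C gamma (0.39 ± 0.11, limma adjusted p = 0.0923), Inpp5d, the phosphatase SHIP-1 that inhibitory receptors recruit (0.48 ± 0.15, 0.111), and Vav1, an exchange factor downstream of NKG2D (0.37 ± 0.14, 0.187). The median of the 15 was 0.27, and 0.17 without isotype replicate 1.

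Among transcription factors that shape killer cell fates, 22 of 25 were tested, and 1 rose and 1 fell. Stat4, which relays interleukin 12, was 10.57, 10.59, 10.48 and 10.42 on isotype and 10.99, 10.88, 11.19 and 11.03 on anti-IL-10R arrays, a rise of 0.51 ± 0.11 (SE, limma adjusted p = 0.0438). Lef1, a factor of naive and memory T cells, fell by 0.98 ± 0.17 (adjusted p = 0.0291). Both calls ended with any array left out other than isotype replicate 1 (adjusted p 0.0877 to 0.14 for Stat4 and 0.0518 to 0.0941 for Lef1). Without the filter on dim genes Stat4 lost its call (0.0677) and Lef1 kept it (0.0385), and Stat4 also lost it with arrays centred on their median (0.087). Both lost it with the replicate block (0.14 and 0.104), the NK marker covariate (0.357 and 0.2) and the B cell marker covariate (0.218 and 0.168). Id2, which supports effector cells, and Ikzf2, which encodes Helios, differed by 0.41 ± 0.10 and 0.69 ± 0.17 (adjusted p 0.0579 and 0.0617) and passed without isotype replicate 1 (0.0311 and 0.0164). Runx3 and Tbx21 are named after their values were seen. Runx3, a RUNX factor, differed by 0.29 ± 0.11 (0.182). Tbx21, which encodes T-bet, differed by 0.05 ± 0.32, and by −0.26 without isotype replicate 1. The median of the list was 0.27, and 0.21 without that array.

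Of 24 other receptors of the NK type on T cells 18 were tested, and 1 fell. Il18rap, the accessory chain of the interleukin 18 receptor, read 6.04, 5.65, 5.87 and 5.99 on isotype and 4.59, 5.51, 4.80 and 4.84 on anti-IL-10R arrays, and fell by 0.95 ± 0.19 (SE, limma adjusted p = 0.0399). It was tested only because of its isotype level: its mean was 5.89 on the isotype arrays and 4.93, in the dim range, after blockade. Without the filter on dim genes the call ended (adjusted p = 0.0559), as it did with the NK (0.474) or B cell marker mean (0.218) as covariate and with the replicate block (0.129). The call was kept without isotype replicate 1 (0.0261) and anti-IL-10R replicate 2 (0.0367) and ended with each of the other 6 arrays left out (0.0769 to 0.13). Its partner Il18r1 differed by −1.02 ± 0.25 (adjusted p = 0.0618), and Lilrb4a, an inhibitory receptor, by 0.70 ± 0.16 (0.052). Cd96, a receptor for nectin-like proteins, differed by 0.54 ± 0.14 (0.0727). Without isotype replicate 1, 4 rose (Cd244a, Cd96, Havcr2 and Lilrb4a) and 2 fell (Il18r1 and Il18rap), in the fit in which 3.35% of all tested genes rose and 5.90% fell. The median of the list was 0.13, and 0.05 without that array.

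Of 17 genes of killing itself 16 were tested and 0 passed; 10 had a higher and 6 a lower mean, with a median of 0.11. Fasl, the death ligand, differed by 0.40 ± 0.09 (SE, limma adjusted p = 0.0571) and passed without isotype replicate 1 (0.0247). The granzyme genes Gzmk and Gzmm differed by 0.23 ± 0.10 and 0.32 ± 0.16 (adjusted p 0.225 and 0.293), and the chemokine gene Ccl5 by 0.20 ± 0.09 (0.268). Among the 6 with a lower mean were Ifng (−0.26 ± 0.14, 0.322) and Gzmb (−0.16 ± 0.11, 0.444), named after their values were seen. Among the receptor genes the median was −0.19, and among the genes of these 5 lists it was 0.11 to 0.27. Without isotype replicate 1 these medians were −0.31 and 0.05 to 0.27, beside −0.01 over all tested genes. With all arrays, the tested CD8 T cell and NK cell markers had medians of 0.25 and 0.28, and the 3 tested B cell markers one of −0.36. The lists were not compared by a test.

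**Figure D5:**
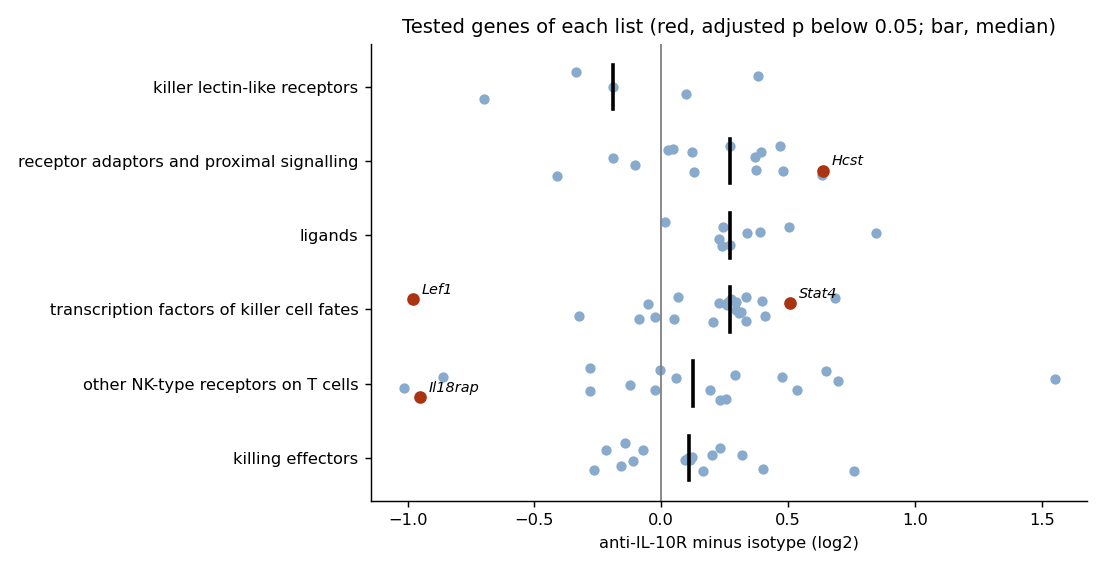
Log2 differences (anti-IL-10R minus isotype) of the tested genes of each list (points are jittered vertically; red and named, adjusted p below 0.05; black bar, median). The receptor list has 5 points with a median of −0.19, and the adaptor, ligand and transcription factor lists have medians of 0.27.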

How the data were processed

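The deposited values are log2 expression values, 1 per transcript cluster and array of the GeneChip Mouse Gene 2.0 ST, which per the submitters' processing notes the authors made with Affymetrix Power Tools. The log2 scale was read from the range, 1.57 to 13.89. The tool's version, algorithm and normalization were not given in the sources used here. Array medians lay between 5.19 and 5.31, and precision is limited by the number of arrays (4 against 4).

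Of 41345 rows, 23521 had 1 gene symbol in the platform annotation, 1814 several and 16010 none. The brightest row per gene left 22180 genes, of which 12019 had a mean of at least 5.24. Groups were compared with limma 3.58.1 in R 4.3.3 (lmFit, eBayes, two-sided, Benjamini-Hochberg over all tested genes); dim genes were read from the fit without the limit. Promoter sequences are RefSeq's (GRCm38.p6); the build behind the array is not stated. The limma fit was tested on simulated data with independent noise per gene. No array that stands apart was simulated, and the permutation, correlation and promoter steps were not covered.

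The genes and lists were chosen with earlier results of these data known. Named genes are the receptor genes, up to 4 per list with the smallest p, and 3 per receptor gene with the highest correlation, predicted genes left out. A few others were named after their values were seen. Alternatives were other filters, normalizations and variance models, mean of all rows, array weights, replicate number as a block, NK or B cell marker means as covariates, and each array left out.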

Additional observations from a re-analysis of the deposited data

Results flagged for a closer look

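In 48 groups of 4 arrays, over the measured receptor genes, the other genes of the family and Hcst, 4 values lay far from the other 3 of their group; by chance about 1 group in 20 is marked so. Isotype replicate 1 was high for Klra2 (4.16, the others 3.17 to 3.26), Klra5 (4.43, the others 3.32 to 3.49) and Klri1 (5.01, the others 3.07 to 3.40). Isotype replicate 4 was low for Klrb1b (3.70, the others 4.27 to 4.33). All 4 genes were dim, none is among the 8 measured receptor genes described above, and isotype replicate 1 is also the array that correlated least with the rest.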

How the results depend on the processing

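Over all genes 304 passed the threshold, and 145 without the filter on dim genes, 460 with a stricter one, 631 after quantile normalization, 526 after centring arrays, 1469 with array weights, 1 with the NK cell marker mean and 3 with the B cell marker mean as covariate. The NK marker mean did not overlap between the groups, so a fit with it as covariate cannot set it apart from the treatment. With 1 array left out the count was 3 to 1112. The split was 148 higher and 156 lower, and 204 and 427 after quantile normalization. The receptor genes past the threshold were 0, with 1 under array weights (Klre1, −0.62, adjusted p = 0.0196) and 0 to 1 with 1 array left out. With the replicate number as a block, 4 genes passed and no receptor gene did; Klrk1 minus Hcst stayed at −1.34 with an exact p of 0.125, the smallest that 4 pairs allow, and Hcst had an adjusted p of 0.115. Same-numbered arrays did not deviate together (r −0.05, 0.117, 0.023 and −0.16 for replicates 1 to 4), so the numbers were not taken as pairs. Klrk1 minus Hcst was −1.61 to −1.12 and Klrc1 minus Klrc2 −0.29 to 0.055 with 1 array left out, where no p under 0.0571 is possible. Hcst lost its call in 10 of 18 alternatives, among them no filter (0.05) and the NK and B cell marker covariates (0.411 and 0.188), and kept its direction in all. Klrk1, Klrd1, Klrg1 and Klre1 kept their direction in all 18. Klrc1 turned to −0.0053 with array weights, −0.49 with the NK and −0.49 with the B cell covariate, −0.03 without isotype replicate 1 and −0.15 without isotype replicate 3 (−0.15 to 0.39 with 1 array left out). Klrc2 turned to −0.99 and −0.40 with these covariates and −0.086 without isotype replicate 1 (−0.086 to 0.58). Klrb1c turned to 0.22 with array weights, 0.70 with the NK covariate and 0.23 without isotype replicate 1 (−0.32 to 0.23), and Klra9 to 0.021 with the NK covariate. Why they turned was not tested.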
